A study of Homo sapiens with 6 samples.

Results

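Imprinted genes and the domains that hold them were examined for chromatin bound by the tandem Tudor domain (TTD), a reading domain of the human protein UHRF1. The list comprised 36 genes, chosen by symbol as known imprinted genes, of the 38912 protein-coding and lncRNA genes of GENCODE release 44. All 36 were found in that annotation with a single record each. They fell into 18 imprinted domains on 12 chromosomes, of which 10 domains held more than 1 member and 8 held a single member. The other 21337 protein-coding and lncRNA genes of the same chromosomes served as the background.

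The study measured where the TTD binds in HepG2 cells, an established human hepatoblastoma line, grown without treatment. Native mononucleosomes were pulled down with GST-tagged TTD (residues 126 to 280 of UHRF1) in place of an antibody, a method called CIDOP, with H3K9me2 ChIP and input prepared beside it, in 2 biological replicates of each of the 3 groups. The authors deposited 1 list of 31569 broad TTD peaks called on the mean of the 2 TTD replicates, so its values carry no spread between replicates, and the ChIP and input samples were not used here. The peaks covered 3.02% of the hg38 chromosomes, their median width was 2250 bp, and cover below means the percent of bases they hold in a window; the list does not tell the parental alleles apart.

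Imprinted genes are expressed from the allele of a single parent. The choice is set by imprinting control regions that carry DNA methylation on the chromosome from the egg or the sperm, and many domains also hold a long noncoding RNA. UHRF1 maintains DNA methylation with DNMT1 after replication, and its TTD binds histone H3 methylated at lysine 9, a mark found on the methylated allele of imprinting control regions. The authors report stronger TTD binding where H3 also carries H3K4me1, methylation of another lysine. They report low TTD signal in regions with lysine 9 methylation alone. The TTD peaks are therefore not a measure of lysine 9 methylation by itself.

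Most imprinted genes had no TTD peak at the start and at least 1 within 100 kb, as did most other genes. A peak lay within 2.5 kb of the annotated transcription start site (TSS) for 7 of 36 members, or 19.4% (95% Wilson interval 9.75 to 35.0%, counting error only), beside 15.8% of the other genes. The gene body held a peak in 15 members, or 41.7% (27.1 to 57.8%), beside 27.5% of the other genes. The 100 kb on either side of the gene held a peak in 32 members, or 88.9% (74.7 to 95.6%), beside 77.3%. Members of a domain share flanks, and PEG3 and ZIM2 share a start, so the members are not independent of each other. All 3 background shares lay inside the intervals of the members. At the TSS this held for the 2.5 kb window and not for every other setting. With 5 kb on each side, 13 of 36 members had a peak, and the 20.9% of other genes lay below their interval. Over the starts of all transcripts the count was also 13 of 36, and the 20.6% of other genes lay below the interval. Genes with more annotated starts have more windows, and the number of starts was not matched between members and other genes. With 1 kb on each side it was 3 of 36, beside 10.8%.

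Gene length moved with the body count. The median length was 33.1 kb for the members and 14.4 kb for the other genes. None of the 10 members under 10 kb held a peak in the body, beside 9.73% of other genes of that class. Of the 10 members of 10 to 50 kb, 3 held a peak, beside 27.0%, and of the 16 members over 50 kb, 12 held a peak, beside 60.8%. Within a class of length, the background share lay inside the Wilson interval of the members, which ran from 50.5 to 89.8% for the long genes.

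**Figure D1:**
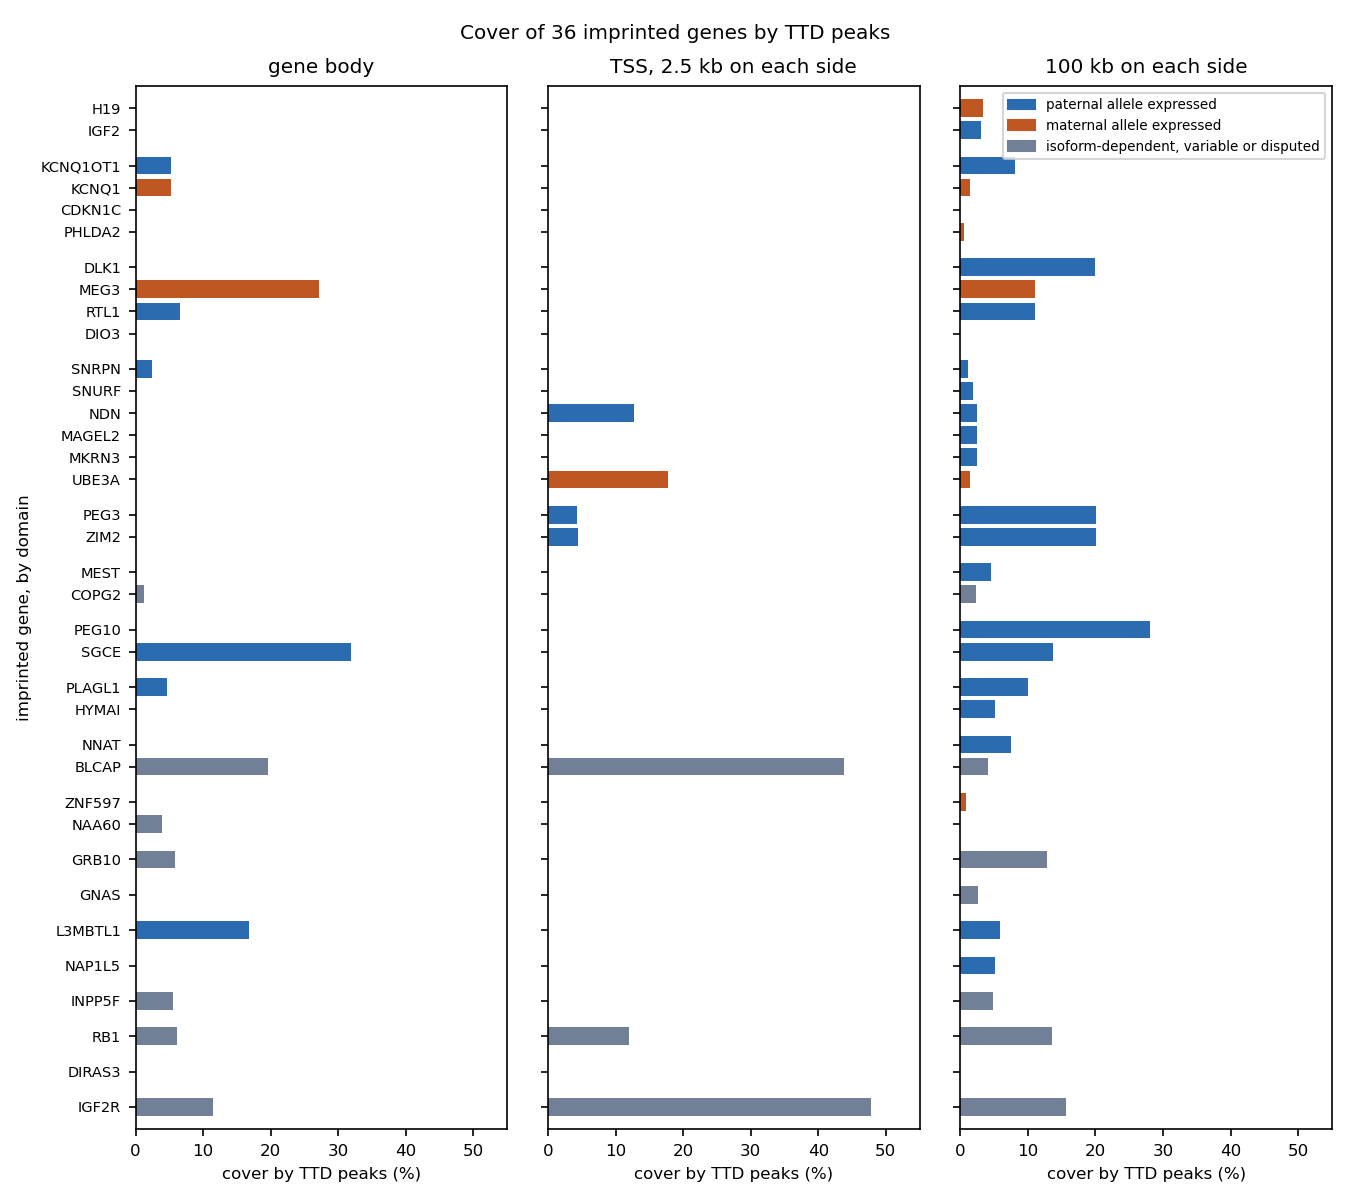
Cover of the gene body, of the TSS with 2.5 kb on each side and of the 100 kb on each side (percent of bases in TTD peaks) for the 36 imprinted genes, grouped by domain and coloured by the textbook class of expressed allele, which was not measured in HepG2 cells. Bars at the TSS are present for 7 genes, while 32 genes have a bar for the flanks, with the longest at PEG10 (28.0%).

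The 7 members with a peak at the TSS were IGF2R, BLCAP, UBE3A, NDN, RB1, ZIM2 and PEG3. IGF2R, the receptor that clears insulin-like growth factor 2 from the cell surface, had 47.8% of its 5 kb window in peaks, the highest value of the list. Of its 2 peaks there, the one at chr6:159967041-159968620 ended 462 bp upstream of the start and the one at chr6:159970771-159974790 began 1.69 kb downstream, in an intron. BLCAP, a small protein reduced in bladder cancer, had 43.8% of the window covered, by a peak whose edge lay 310 bp upstream of the start. In both genes the start itself lay outside the peaks.

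UBE3A, the ubiquitin ligase lost in Angelman syndrome, had a peak of 890 bp at chr15:25439441-25440330, 390 bp upstream of its start. NDN, which restrains growth in neurons, had 12.7% of its window covered by the edge of a peak of 4930 bp that lay 1.87 kb upstream. RB1, the retinoblastoma tumour suppressor, had a peak of 600 bp in an intron, 1.82 kb downstream of the start. PEG3 and ZIM2, zinc finger genes with a common start region, reached 4.34% and 4.40% through the edge of 1 peak that lay 2.28 kb upstream. No member had its start base inside a peak, beside 4.0% of the other genes.

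Promoter sequences show what kind of start this is. In the RefSeq promoter table (GRCh38.p14), 25 of 36 members had an entry, and IGF2, KCNQ1OT1, KCNQ1, CDKN1C, PHLDA2, DLK1, PEG3, ZIM2, PEG10, SGCE and NNAT had none. The 250 bases before the start are given, with CpG dinucleotides in capitals, for the 3 of the 7 members with a peak at the TSS whose window ends within 10 bases of the annotated start. They are chr6:159968832-159969081 (plus strand) for IGF2R with 33 CpGs, chr15:25439057-25439306 (minus strand) for UBE3A with 33 CpGs and chr15:23687306-23687555 (minus strand) for NDN with 30 CpGs.
IGF2R promoter: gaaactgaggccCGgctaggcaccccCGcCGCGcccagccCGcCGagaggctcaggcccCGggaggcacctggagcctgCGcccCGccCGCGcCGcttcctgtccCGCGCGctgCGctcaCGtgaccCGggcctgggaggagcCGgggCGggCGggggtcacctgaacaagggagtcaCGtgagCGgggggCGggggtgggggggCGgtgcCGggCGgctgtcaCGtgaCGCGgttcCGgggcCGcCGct
UBE3A promoter: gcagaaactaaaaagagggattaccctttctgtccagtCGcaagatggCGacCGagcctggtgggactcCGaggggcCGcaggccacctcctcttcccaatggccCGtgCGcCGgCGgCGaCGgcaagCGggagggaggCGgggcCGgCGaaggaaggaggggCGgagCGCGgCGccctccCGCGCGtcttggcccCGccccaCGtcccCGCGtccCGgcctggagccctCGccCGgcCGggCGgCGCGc
NDN promoter: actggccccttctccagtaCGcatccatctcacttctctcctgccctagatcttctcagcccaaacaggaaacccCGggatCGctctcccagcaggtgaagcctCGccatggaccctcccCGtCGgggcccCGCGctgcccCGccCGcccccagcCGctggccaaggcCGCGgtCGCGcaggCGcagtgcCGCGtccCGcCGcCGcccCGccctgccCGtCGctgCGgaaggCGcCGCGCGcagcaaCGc

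In the 7 members with a peak at the TSS, the nearest peak had a lower CpG ratio than the start, as in 1610 of the 1623 other genes with a CpG-rich start and a TSS peak (99.2%). The CpG observed/expected ratio was 0.88 in the 1 kb around the IGF2R start and 0.45 in its upstream peak, 0.92 around the UBE3A start and 0.42 in its peak, and 0.81 around the NDN start and 0.18 in its peak. For BLCAP it was 0.70 and 0.27, for RB1 0.96 and 0.26, and for PEG3 and ZIM2, which share the peak, 0.67 and 0.20. Over the 52 different promoter windows of the 25 members, none overlapped a TTD peak, beside 4.85% of the windows of other genes on the same chromosomes. The 149 peaks of the 18 domains had a median ratio of 0.22 and a median GC content of 45.2%, close to 0.19 and 43.3% for the other 17174 peaks of the same chromosomes. A ratio of at least 0.6 was found in 3 of the 149 domain peaks (2.01%) and in 0.658% of the others.

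All 7 members with a peak at the TSS had CpG-rich starts, defined by a ratio of at least 0.6 and a GC content of at least 50% in the 1 kb around the start. They were 7 of the 24 members of that class (29.2%, Wilson interval 14.9 to 49.2%), beside 18.7% of the other CpG-rich genes. None of the 12 members with other starts had a peak in the window (upper limit 24.2%), beside 13.8% of other genes of that class. The 12, classed by the start of the annotated record, included H19, IGF2, DLK1, MEG3, RTL1, MAGEL2, MKRN3 and GNAS. Both background shares lay inside the members' intervals.

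**Figure D2:**
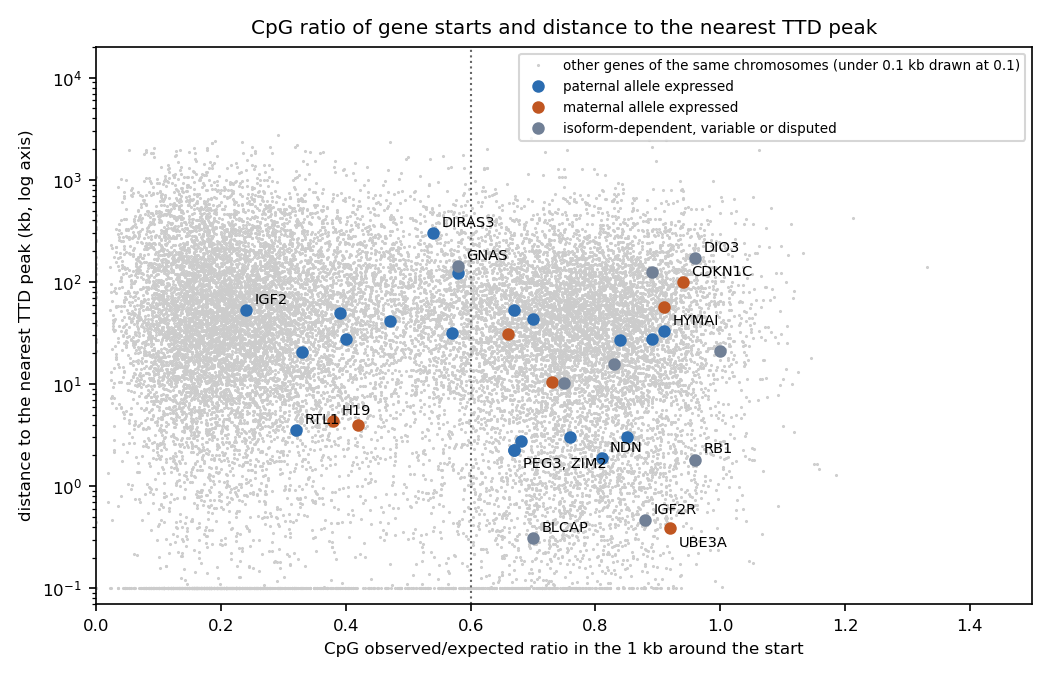
Each point is a gene, placed by the CpG observed/expected ratio of the 1 kb around its start and by the distance from the start to the nearest TTD peak (kb, log axis), with the 36 imprinted genes in colour and other genes of the same chromosomes in grey. The dotted line marks a ratio of 0.6, and the imprinted genes with a peak nearest to the start (BLCAP, UBE3A and IGF2R) lie to its right.

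Cover over the members was lower near the start than farther away. Within 1 kb of the start, 2.55% of bases lay in peaks over the 36 members, beside 3.54% for other CpG-rich genes and 6.18% for the other genes without CpG-rich starts. At 1 to 2.5 kb the members had 4.91%, beside 5.99% and 5.72%, and at 2.5 to 10 kb they had 6.71%, beside 4.34% and 4.73%. At 10 to 20 kb from the start, the members reached 7.37%, beside 3.74% and 4.36%. Averaged over the domains, the values of the 4 distances were 2.73%, 6.61%, 6.08% and 7.70%, so the rise was not steady. In the first kb downstream of the start no base of any member was in a peak, beside 2.17% for other CpG-rich genes.

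**Figure D3:**
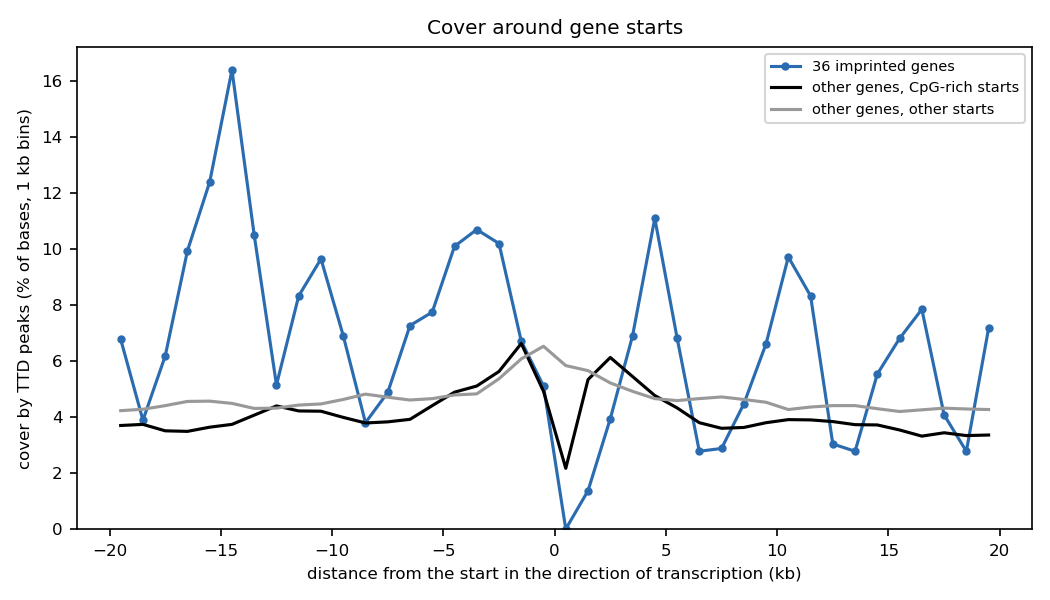
Cover by TTD peaks (percent of bases in 1 kb bins) against the distance from the start in kb, for the 36 imprinted genes and for other genes of the same chromosomes with and without CpG-rich starts. The line of the imprinted genes falls to 0 in the first kb downstream and is uneven from bin to bin.

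Genes whose main start is known to lie at a maternally methylated region formed a list of 14 members. These regions are methylated in the egg, and the gene is then expressed from the paternal copy. The list held KCNQ1OT1, SNRPN, SNURF, PEG3, ZIM2, MEST, PEG10, SGCE, PLAGL1, HYMAI, NNAT, L3MBTL1, NAP1L5 and DIRAS3. A peak lay in the TSS window of 2 of the 14, PEG3 and ZIM2, which share it, and of 5 of the other 22 members (14.3% and 22.7%, beside 15.8% of the other genes). The mean TSS cover was 0.624% for the 14 and 6.10% for the 22, beside 5.54% for the other genes, and IGF2R and BLCAP carried the higher mean, since the other 20 averaged 2.12%. The flanks showed the opposite order, with a median cover of 6.70% for the 14 and 2.57% for the 22, beside 1.91% for the other genes.

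Several of these starts stood just outside a peak and others far from any. SGCE and PEG10, which face away from each other from a common start region, had the nearest peak at 3.04 and 2.79 kb, and NNAT had it at 3.01 kb. MEST, a hydrolase-like growth gene, was 43.5 kb from the nearest peak, SNURF 52.6 kb and DIRAS3, a RAS-related growth suppressor, 302 kb. The annotated records of SNRPN, PLAGL1 and L3MBTL1 open upstream of the methylated region, so the window measured for them is another one, and without them the count was 2 of 11 with a mean TSS cover of 0.795%. MEST stayed among the 11, measured at its annotated start. It also has promoter windows farther downstream, 45.4 and 46.2 kb from the nearest peak. For SNRPN none of its 10 transcript starts had a peak within 2.5 kb, whereas 3 of 21 for PLAGL1 and 4 of 32 for L3MBTL1 did.

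The hexamer TGCCGC, the letters read by the zinc finger protein ZFP57 that guards methylated imprints, was searched on both strands in the 250 bases before the start. It was present in 14 of the 52 promoter windows of the members (26.9%), beside 12.4% of 20062 windows of other genes on the same chromosomes. Some windows overlap, such as 3 of MEG3, and with overlapping windows of the members joined, 12 of 44 held it. The members' windows were richer in CpG, with a median of 16 CpGs beside 11. Among windows with at least 16 CpGs, 8 of 27 of the members and 23.1% of the others held it. The 12 genes with a match were BLCAP, GNAS, GRB10, HYMAI, L3MBTL1, MEG3, MEST, NAP1L5, NDN, PLAGL1, SNRPN and SNURF. The 3 starts shown lie at maternally methylated regions, have 2 matches each and are given with CpGs in capitals, since each lay over 30 kb from a peak. They are chr6:144008260-144008509 (minus strand) for HYMAI, which PLAGL1 shares, chr15:24954737-24954986 (plus strand) for SNURF, which SNRPN shares, and chr4:88697830-88698079 (minus strand) for NAP1L5.
HYMAI promoter: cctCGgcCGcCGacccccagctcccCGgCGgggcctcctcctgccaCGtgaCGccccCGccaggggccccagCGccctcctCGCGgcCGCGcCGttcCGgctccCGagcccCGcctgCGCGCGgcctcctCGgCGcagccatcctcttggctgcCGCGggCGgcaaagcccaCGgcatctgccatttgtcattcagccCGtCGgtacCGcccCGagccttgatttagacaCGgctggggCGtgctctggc
SNURF promoter: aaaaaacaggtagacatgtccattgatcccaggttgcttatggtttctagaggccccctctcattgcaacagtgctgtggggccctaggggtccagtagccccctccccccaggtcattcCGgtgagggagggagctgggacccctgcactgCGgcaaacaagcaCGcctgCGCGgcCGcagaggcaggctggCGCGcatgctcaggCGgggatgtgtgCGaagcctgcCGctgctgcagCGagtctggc
NAP1L5 promoter: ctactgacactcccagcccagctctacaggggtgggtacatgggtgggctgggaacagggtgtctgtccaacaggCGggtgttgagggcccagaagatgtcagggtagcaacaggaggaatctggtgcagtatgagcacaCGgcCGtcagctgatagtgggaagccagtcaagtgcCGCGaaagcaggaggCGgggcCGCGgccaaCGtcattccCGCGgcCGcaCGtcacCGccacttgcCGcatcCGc

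A match describes the letters of the window and was not tested as a binding site. HYMAI, the noncoding RNA of the transient neonatal diabetes locus, lay 33.2 kb from the nearest peak, and NAP1L5, a nucleosome assembly protein-like gene inside an intron of HERC3, lay 31.6 kb from it.

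The flanks of the members were covered more than those of most genes on their chromosomes. Median flank cover was 4.34% for the members (95% interval of the median 2.46 to 8.06%) and 1.91% for the other genes. With peaks of at least the median width alone, the medians were 2.46% and 1.21%. Flank cover by all peaks was above the chromosome's own median in 26 of 36 members, and 8 members were in the top 10% of their chromosome. The whole chromosomes differed, from 1.26% of bases in peaks on chromosome 19 to 7.04% on chromosome 20, so ranks are given within a chromosome; copy number in HepG2 was not analysed here, and its part in these values was not tested.

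**Figure D4:**
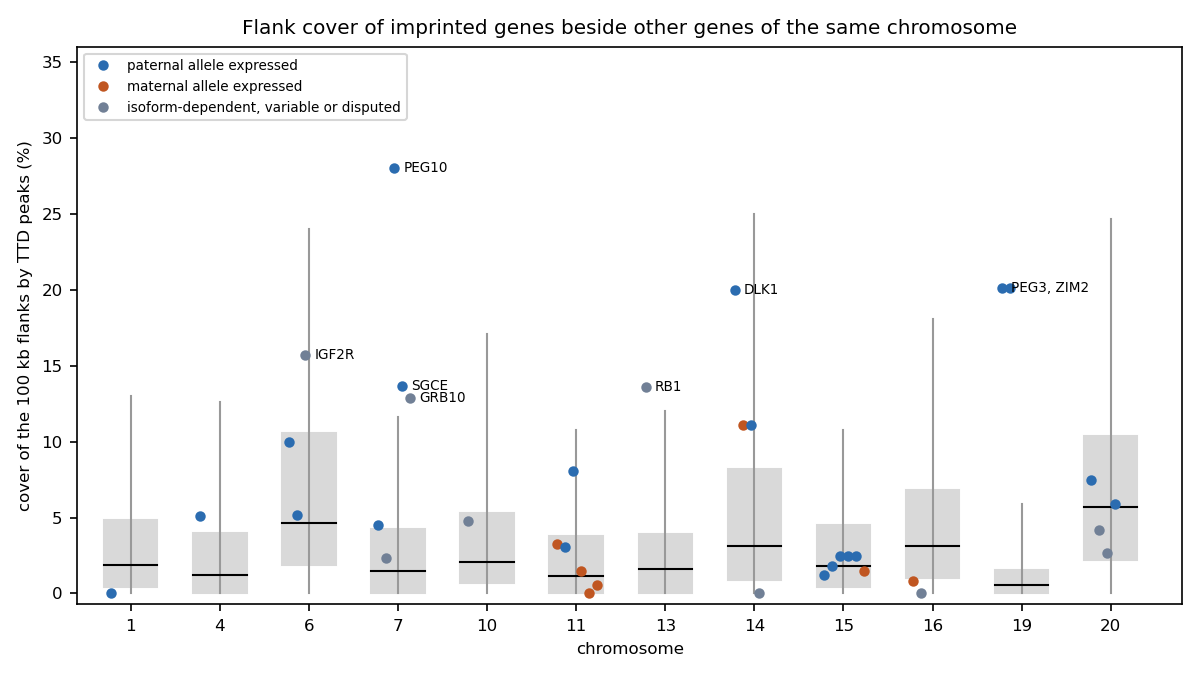
Cover of the 100 kb flanks (percent of bases in TTD peaks) by chromosome, with the 36 imprinted genes as points coloured by expressed allele. Grey boxes span the quartiles of other genes of the chromosome, black lines their median and thin lines the 5th to 95th percentile; PEG10, SGCE, GRB10, RB1, PEG3 and ZIM2 lie above the thin lines.

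Among the domains, PEG10-SGCE was the most covered. PEG10, a gene derived from a retrotransposon and needed for the placenta, held no peak in its body, but 42.1% of the 100 kb upstream of it lay in peaks. Much of that stretch is SGCE, the sarcoglycan gene of myoclonus dystonia, whose body of 132 kb held 7 peaks and 31.8% cover, a value reached by 2.43% of other genes on chromosome 7. The widest, at chr7:94635401-94646810, was 11410 bp long. Of 73 SGCE transcript starts, 16 lay inside a peak, although the main start did not. The span of both genes with 100 kb on each side had 15 peaks and 20.1% cover, and 0.651% of the 461 windows of equal size along chromosome 7 had as much. Beside SGCE, CASD1 was the other protein-coding gene with most bases in peaks, 3.16 kb.

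In the PEG3 domain the peaks lay on a single side of the genes. PEG3 and ZIM2 held none in the body or in the 100 kb downstream, whereas 10 peaks covered 40.2% of the 100 kb upstream. That stretch holds the start of the noncoding RNA MIMT1 and no protein-coding gene with a base in a peak, and its widest peak measured 11420 bp. From 100 to 250 kb upstream, 5 more peaks followed, with 12.6% cover. Chromosome 19 had the lowest cover of the 12, and 0.0450% of its other genes had flanks covered as much as those of PEG3. The span of the domain had 15.1% cover, reached by 0.909% of 220 windows.

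The DLK1-MEG3 domain on chromosome 14 was divided. DLK1, a ligand-like protein of the Notch pathway, and DIO3, the enzyme that inactivates thyroid hormone, had no peak in the body or at the TSS. MEG3, the maternally expressed noncoding RNA, held 9 peaks in 81.6 kb, with 27.1% cover, reached by 7.84% of other genes on the chromosome. Of the 9 peaks, 5 were intronic in every transcript and 4 touched an exon. Its annotated record opened 3.95 kb before the nearest peak and far upstream of its RefSeq starts, and 19 of its 34 transcript starts had a peak within 2.5 kb and 5 lay inside one. Between DLK1 and MEG3 stood the widest peak of the domain, chr14:100746501-100758420, 8276 bp from DLK1, and 37.5% of the 100 kb downstream of DLK1 was in peaks.

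Farther along the domain the peaks were sparser. RTL1, a retrotransposon-derived gene needed for placental vessels, held 1 intronic peak of 1560 bp, 3.52 kb from its start. None of the 54 miRNA genes and none of the 47 snoRNA genes annotated between DLK1 and DIO3 overlapped a peak, beside 3.36% of all miRNA genes and 1.86% of all snoRNA genes on the 12 chromosomes, so the counts of 0 are near the background. Beyond RTL1 no peak followed for 317 kb, and then 5 peaks at chr14:101220581-101337570 covered 22.6 kb of the 69.5 kb in peaks of the whole span. The last 326 kb of the span, with DIO3 and its flanks, held no peak. The whole span of 1038 kb reached 6.69%, a value found in 20.4% of 103 windows.

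**Figure D5:**
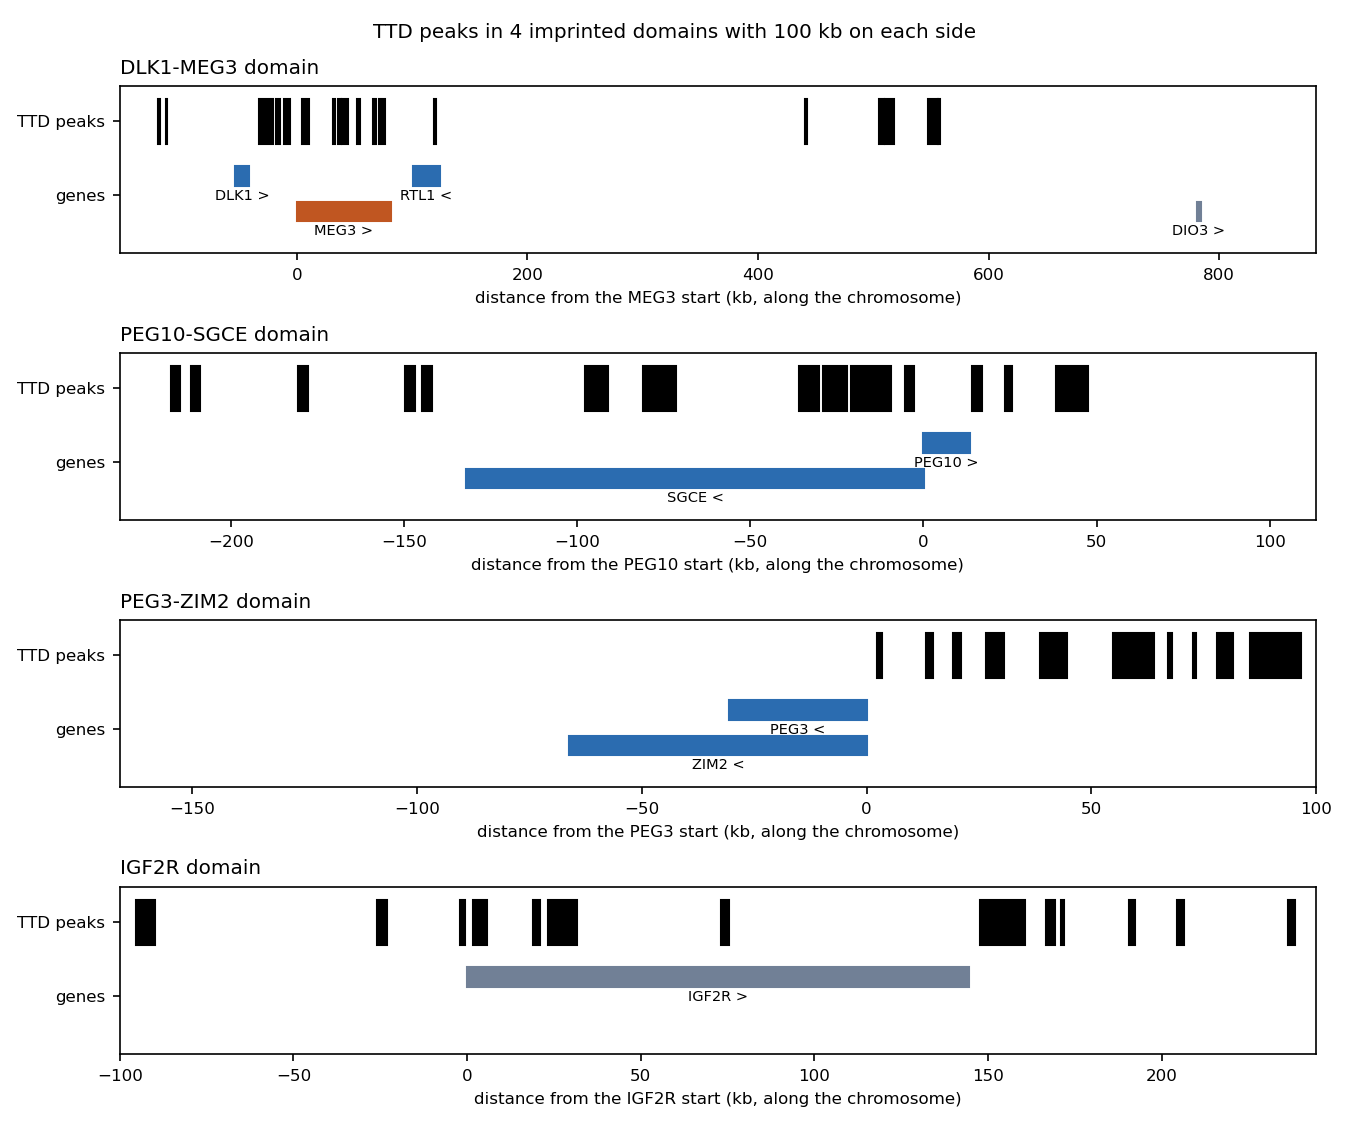
TTD peaks (black) and imprinted genes (coloured by expressed allele, with the direction of transcription) against the distance in kb from the start of MEG3, PEG10, PEG3 and IGF2R, drawn to scale along the chromosome with 100 kb on each side. Peaks crowd around MEG3 and are absent from the last 326 kb of its domain, and they lie on the upstream side of PEG3 alone.

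IGF2R, RB1 and GRB10 were the single-gene domains with the highest span cover. The IGF2R span had 14 peaks and 13.9% cover, reached by 9.90% of 495 windows of chromosome 6. Its widest peak, chr6:159992521-160000730, was intronic. RB1 held 8 peaks, all intronic, with 6.09% body cover, and its span had 9.11%, reached by 5.22% of windows. LPAR6, a receptor gene inside an intron of RB1, held 7.27 kb in peaks, and the widest peak of that span lay 21070 bp from CYSLTR2. GRB10, an adaptor that restrains insulin signalling, held 6 peaks and its span had 9.33% cover, reached by 5.57% of windows; its neighbour DDC, which makes dopamine and serotonin, held 9.34 kb in peaks. Together with PEG10-SGCE and PEG3, these were the 5 domains in the top 10% of windows on their chromosomes, of 18 domains in all. IGF2R stood at that limit, and its cover was reached by 10.1% of windows when these were shifted.

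The domains of chromosome 11 held fewer peaks. H19, a noncoding RNA, and IGF2, the fetal growth factor, had no peak in the body or at the TSS. A peak of 3400 bp at chr11:2008911-2012310 lay between these genes, 4.36 kb upstream of the annotated H19 record and 7.64 kb upstream of its RefSeq start, and MRPL23 was the protein-coding gene nearest to it. The IGF2 start was 52.8 kb and the gene 23.6 kb from the nearest peak. In the adjoining KCNQ1OT1 domain, KCNQ1, a potassium channel gene of 404 kb, held 7 intronic peaks with 5.30% cover, and 3 of them also lay in its antisense RNA KCNQ1OT1. The KCNQ1OT1 start, at the control region of the domain, was 27.1 kb from the nearest peak.

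The growth-restraining genes at the end of that domain stood in its longest stretch without a peak. CDKN1C, a cell cycle inhibitor, had none within 100 kb, and the start of PHLDA2, which limits placental growth, was 56.6 kb from its nearest. The peak-free stretch measured 217 kb. TRPM5 on the other side held 3.01 kb in peaks. The spans of the H19 and KCNQ1OT1 domains had 2.84% and 3.73% cover, reached by 29.6% and 22.8% of windows on the chromosome.

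The SNRPN domain on chromosome 15, deleted in Prader-Willi and Angelman syndromes, was the longest and held 5 peaks in 2073 kb. Its cover of 0.674% was reached by 69.4% of 49 windows. SNRPN, which encodes a splicing protein, held 1 intronic peak of 3670 bp, 75.1 kb from its start, and SNURF held none. MAGEL2 and MKRN3, expressed in the brain, had in their flanks only the peak upstream of NDN, which was also the widest of the domain. None of the 84 snoRNA genes of the domain overlapped a peak, against the same low background share of 1.86%. The longest stretch without a peak measured 1078 kb.

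On chromosome 20, BLCAP and NNAT shared a domain with 7 peaks. NNAT, a membrane protein of the developing brain that lies in an intron of BLCAP, held none, while BLCAP held 2 peaks with 19.6% cover. The domain's 6.49% was reached by 39.6% of windows on this peak-rich chromosome. L3MBTL1, a reader of methylated histones, held 4 peaks with 16.8% cover, 3 of which touched exons, and its neighbour SGK2 held 4.16 kb. GNAS, which encodes a G protein subunit through several promoters, held no peak over 71.5 kb, and none of its 59 transcript starts had one within 2.5 kb. In the flanks of GNAS, NELFCD held 2.41 kb and the widest peak lay 2042 bp from CTSZ.

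The remaining domains ranged from no peak in the DIRAS3 span to 10 in that of PLAGL1. COPG2, a coat protein gene that overlaps the end of MEST, held 2 intronic peaks with 1.24% cover, and CEP41 held the widest peak of their span. PLAGL1, a zinc finger growth suppressor, held 3 peaks with 4.63% cover, ZC2HC1B beside it held 10.3 kb, and their span had 7.94% cover. INPP5F, an inositol phosphatase, held 2 intronic peaks with 5.49%, and MCMBP held 9.56 kb in its flanks. NAA60, an acetyltransferase gene, held 1 intronic peak of 1690 bp, the only peak in the span it shares with the zinc finger gene ZNF597. NAP1L5 had 4 peaks in its flanks, with FAM13A holding 6.60 kb. DIRAS3 had no peak in its span of 206 kb, and 37.2% of windows of that size on chromosome 1 had none either.

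By expressed allele, the counts at the TSS were 3 of 20 for the paternally expressed members, 1 of 7 for the maternally expressed and 3 of 9 for those whose imprinting depends on the isoform, varies or is disputed (15.0%, 14.3% and 33.3%, beside 15.8% of the other genes). Gene bodies held a peak in 6, 2 and 7 members of these classes (30%, 28.6% and 77.8%, beside 27.5%), and their median lengths were 23.4, 11.1 and 103 kb. Whether length accounts for these counts was not tested. Median flank cover was 5.53%, 1.49% and 4.16%, beside 1.91% for the other genes, and 18, 3 and 5 members were above their chromosome's median. The classes are textbook ones, and the expressed allele was not measured in HepG2 cells. The classes share domains and were not tested against each other.

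A list of 41 other genes that are imprinted or lie in imprinted domains was counted the same way. All 41 were found, GPR1 under its current symbol CMKLR2. A peak lay in the TSS window of 6 (14.6%), in the body of 17 (41.5%) and in the flanks of 37, with a median flank cover of 2.38%. Of these genes 7 lie on chromosomes outside the background, and over the other 34 the shares were 14.7% at the TSS (beside 15.8%), 32.4% in the body (beside 27.5%) and 88.2% in the flanks (beside 77.3%). Their median flank cover of 2.5% lay closer to the 1.91% of the background than to the 4.34% of the members. The 6 genes with a peak at the TSS were ZNF331 with 70.0% of the window covered, DDC with 38.5%, ZFAT with 17.2%, MIMT1 with 7.10%, FAM50B with 2.24% and HM13 with 1.54%. MIMT1 shares its peak with PEG3, and DDC lies in the flank of GRB10.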

How the data were processed

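Per the submitters' processing notes and methods, the authors used Trimmomatic 0.38 for trimming and HISAT2 2.2.1 for mapping to hg38, computed RPKM coverage in bins of 10 bp with deepTools 3.3.2 outside blacklisted regions, averaged both TTD replicates, called broad peaks on that mean with MACS2 2.1.1 and curated them by hand. The deposited peak list used here holds positions and widths, with no score, and read depth cannot be told from it. No peak ran past the end of an hg38 chromosome.

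Cover and counts were computed by interval arithmetic, checked on simulated intervals, over GENCODE release 44 gene records, with Python 3.11.15, numpy 2.4.6, scipy 1.17.1, pysam 0.24.0 and matplotlib 3.10.9. Flanks leave out the gene body. Domain spans were ranked among adjoining windows of equal size. These windows tiled the whole chromosome, and stretches of unknown sequence, which can hold no peak, were not left out. Intervals of counts and shares are 95% Wilson intervals. The 95% interval of the median flank cover is an interval of a median over the members and not a Wilson interval. No test was run. The members and lists were chosen with earlier results of these data known. Genes named are all members, in each domain the other protein-coding gene with most bases in peaks and the one nearest to the widest peak (unnamed gene models left out), and other imprinted genes with a peak at the TSS. MIMT1 and HERC3 were also named as neighbours after their positions were seen. For 1 domain the neighbouring gene of this rule is not reported here.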

Additional observations from a re-analysis of the deposited data

How the results depend on the processing

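The count of members with a peak at the TSS depended on the window, the starts and the peak widths used. From 7 of 36 it went to 13 with 5 kb on each side (20.9% of other genes). Over the starts of all transcripts it was also 13 (20.6%), with the number of starts per gene not matched. In these settings the background share lay below the members' Wilson interval, unlike in the main setting. The count went to 3 with 1 kb on each side (10.8%). It was also 3 with peaks of at least the median width alone (7.71%). There the background share lay inside the interval. With at least 500 bp in peaks the count was 5 of 36, beside 14.2% of other genes. With each domain counted once it was 5 of 18 domains, with no background share by domain given here. The body count of 15 of 36 members stayed 15 with at least 500 bp, a setting with no background share given here. It went to 12 with peaks of at least the median width. The 16.6% of other genes with such a wide peak lay below the members' Wilson interval. That share was not split by gene length, and the members were longer, with a median of 33.1 kb beside 14.4 kb. Counted by domain, the body count was 13 of 18, a larger share, with no background share by domain given here. The count within 100 kb, 32 of 36 members, was 17 of 18 domains when each domain counted once, again with no background share by domain. Median flank cover was 2.46% with the wider peaks alone, beside 1.21% for the other genes, and within its interval otherwise. Among protein-coding genes alone, the background shares were 17.5% at the TSS, 34.0% in the body and 79.9% within 100 kb. With windows shifted by a fraction of their length, 4 domains were in the top 10% in place of 5, since IGF2R went from 9.90% to 10.1%. Cover at 10 to 20 kb from the start was 7.70% as a mean over domains; this alternative, and the mean TSS cover of the lists by maternal methylation without SNRPN, PLAGL1 and L3MBTL1 (0.795%) or IGF2R and BLCAP (2.12%), were chosen after seeing the data, as were the joined promoter windows and the count of other imprinted genes on the 12 chromosomes alone. The cause of these shifts was not tested, beyond the smaller or larger windows and lists themselves.

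No paired analysis was possible because the 1 peak list used here was called on the mean of both replicates. The list holds called peaks alone, so signal below the cutoffs, and the depth behind a stretch without a peak, were not analysed here.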
